A study of Mus musculus with 33 samples.

Results

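miR-143 and miR-145 are a pair of microRNAs best known from smooth muscle, and their signals in mouse lung after carbon black are described here. They were taken by name, as mmu-miR-143 and mmu-miR-145, from the probe annotation of an Agilent mouse miRNA array, and make up 2 of its 611 mouse miRNAs. Lungs came from female C57BL/6 mice, 1 array each. Exposed mice had received 0.162 mg of Printex 90, a carbon black of nanosized particles, through the windpipe, and their lungs were taken 1, 3 or 28 days afterwards (6, 4 and 5 arrays). Control mice had received the vehicle alone, salt water with 10% v/v lavage fluid from which cells had been removed, with lungs taken on the same days (6 arrays each). Exposed and control mice shared the strain, the sex and the instillation, and the labels give no age. The series design speaks of individual mice, so arrays of a group were taken as separate animals.

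Smooth muscle cells wrap the airways and blood vessels of the lung. Both microRNAs are cut from a shared primary transcript that serum response factor and its partner myocardin switch on, and in cultured smooth muscle they favour the contractile state over the dividing one. Both are used as markers of smooth muscle in whole tissue, although fibroblasts and pericytes hold them too. In whole lung RNA, fewer cells of a type and less RNA per cell cannot be told apart.

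Signals of the 5 miRNAs most like miR-143 across the arrays, by correlation with group means removed and slide left in, are compared with it further on. The mature strands of 4 of them were matched in RefSeq (GRCm38.p6) and are shown so that their seeds can be compared. They are written 5′ to 3′, with the seed, bases 2 to 8, in capitals. The seed is the stretch that pairs with target messenger RNAs.
miR-30e-5p: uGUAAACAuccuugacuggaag
miR-26a-5p: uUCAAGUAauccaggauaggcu
miR-141-3p: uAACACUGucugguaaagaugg
miR-125b-5p: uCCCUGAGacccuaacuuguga
Each is 22 bases long, and the 4 seeds all differ. The strand of miR-30e lies at chr4:120772660-120772681 on the minus strand and that of miR-141 at chr6:124717917-124717938 on the minus strand. The strand of miR-26a comes from 2 plus-strand copies, at chr9:119031811-119031832 and chr10:126995543-126995564. The strand of miR-125b likewise comes from 2 plus-strand copies, at chr9:41581940-41581961 and chr16:77646279-77646300. The fifth, miR-30b, is of the same family as miR-30e. Its strand was not matched, so it is named only and its seed is not compared.

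In the GRCm38.p6 annotation of RefSeq, Mir143 (63 bases) lies on chromosome 18 at 61649196 to 61649258 and Mir145a (70 bases) at 61647825 to 61647894, with 1301 bases between them. Both lie within the bounds of Carmn, a long noncoding RNA gene at 61645878 to 61665538 that is also known as the host gene of miR-143. Mir145b is a separate gene of the same chromosome, at 69022199 to 69022273.

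The arrays differed in brightness and layout in ways that touch the results. Over 156 probes detected on all 33 arrays, the upper quartile (75th percentile) of processed signal ran from 187 to 1211 units before scaling. Exposed arrays were 1.58-fold as bright as control arrays at day 1 (two-sided exact permutation p = 0.0779, adjusted p = 0.117 over 3 days). The same ratio was 0.951 at day 3 (exact p = 0.848) and 0.653 at day 28 (exact p = 0.0649, adjusted p = 0.117). On every slide, exposed arrays lay in row 2 and control arrays in row 1, so row and exposure cannot be told apart. Values below are log2 signals after scaling each array to an equal 75th percentile. Of the 611 mouse miRNAs, 171 passed the filter on dim signals, which asked for 4 or more arrays above background in any group, and were tested.

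miR-143 was detected in every lung. Its brighter probe was well above background on 33 of 33 arrays, in all 313 spots that carried no outlier flag, and its dimmer probe on 32 of 33. The exception was control day 1 replicate 1. At day 1, miR-143 had a lowest, median and highest log2 signal of 6.33, 7.33 and 7.89 in exposed lungs, against 5.93, 7.16 and 7.98 in control lungs. At day 3, it had 6.58, 7.15, 7.70 and 7.63 in exposed lungs, against 6.51, 7.30 and 7.65 as lowest, median and highest in control lungs. At day 28, it had 7.26, 7.01, 7.27, 7.14 and 7.39 in exposed lungs, against 6.79, 7.14 and 7.94 as lowest, median and highest in control lungs. Exposed and control lungs overlapped on each day, and the exposed lungs of day 28 lay closest together.

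**Figure D1:**
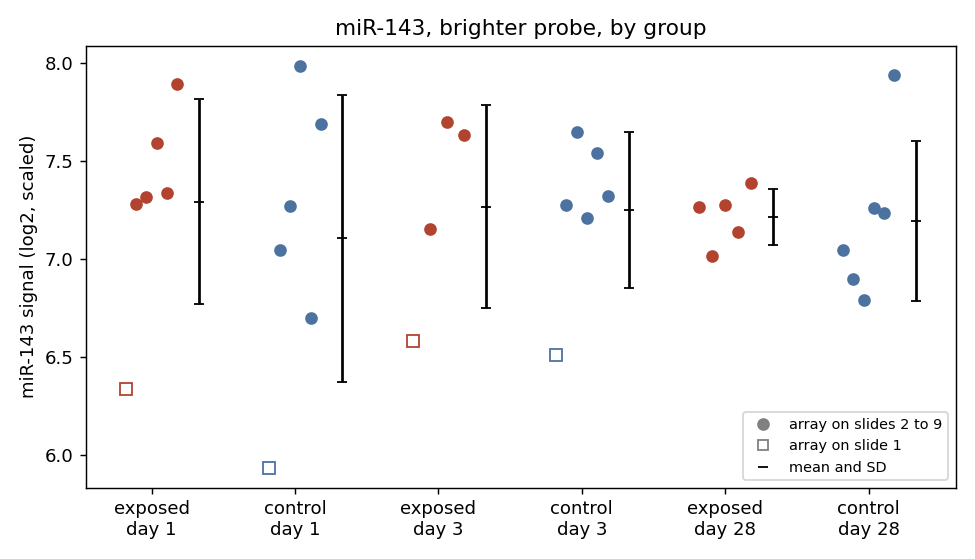
Log2 scaled signal of the brighter miR-143 probe (vertical axis) on each of 33 arrays, by group (horizontal axis), with bars for mean and SD; open squares are the arrays of slide 1. The groups overlap, and the 4 arrays of slide 1 lie lowest, between 5.93 and 6.58.

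The difference in miR-143 between exposed and control lungs was smaller than the spread between mice on each day. The group means were 7.29 ± 0.52 in exposed and 7.10 ± 0.73 in control lungs at day 1 (SD, n = 6 each). They were 7.27 ± 0.52 in exposed lungs (SD, n = 4) and 7.25 ± 0.40 in control lungs (SD, n = 6) at day 3. At day 28 they were 7.22 ± 0.14 in exposed lungs (SD, n = 5) and 7.19 ± 0.41 in control lungs (SD, n = 6). The log2 change was 0.19 ± 0.27 (SE) at day 1, with a 95% interval of -0.37 to 0.74 (limma, Benjamini-Hochberg adjusted p = 0.757 over 171 miRNAs). As folds, this interval spans 0.775 to 1.67. The log2 change was 0.017 ± 0.30 (SE) at day 3, with an interval of -0.60 to 0.64 (limma adjusted p = 0.996). It was 0.022 ± 0.29 (SE) at day 28, with an interval of -0.56 to 0.60 (limma adjusted p = 0.986). The mean effect over the 3 days was 0.076 ± 0.17 (SE), with an interval of -0.26 to 0.41 (limma adjusted p = 0.885).

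Few miRNAs of any kind passed these tests, which is the background for miR-143. The share of the 171 tested miRNAs called by limma at an adjusted p under 0.05 was 0% at day 1, 0% at day 3 and 0% at day 28. For the mean effect it was 0.585%, which is 1 miRNA. An unadjusted p under 0.05 was reached by 9 higher and 6 lower miRNAs at day 1, by 2 higher and 0 lower at day 3, and by 9 higher and 4 lower at day 28. miR-143 was not among them. The median log2 change of all 171 was -0.094, -0.036 and -0.035 at days 1, 3 and 28, and 81.9%, 69.6% and 62.0% of miRNAs had a lower change than miR-143.

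The exposure effect on miR-143 did not pass the test of a difference between days either. It was -0.17 ± 0.41 (SE) at day 3 relative to day 1 (limma adjusted p = 0.991) and -0.17 ± 0.39 (SE) at day 28 relative to day 1 (limma adjusted p = 0.958). No miRNA was called in either test (0% each), and an unadjusted p under 0.05 was reached by 3 higher and 1 lower miRNA at day 3 and by 6 higher and 6 lower at day 28.

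No change of miR-143 over time passed the test in exposed or control lungs. In exposed lungs its log2 change against day 1 was -0.025 ± 0.30 (SE) at day 3 (limma adjusted p = 0.978; 0% called; 1 higher and 2 lower before adjustment). At day 28 the change in exposed lungs was -0.077 ± 0.29 (SE; limma adjusted p = 0.931; 0% called; 2 higher and 25 lower before adjustment). In control lungs the change was 0.15 ± 0.27 (SE) at day 3 (limma adjusted p = 0.935; 0% called; 1 higher and 7 lower before adjustment). At day 28 the change in control lungs was 0.090 ± 0.27 (SE; limma adjusted p = 0.842), in a comparison that called 11 miRNAs, or 6.43%. Before adjustment, 4 were higher and 37 lower there, and the median log2 change of all 171 was -0.17.

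**Figure D2:**
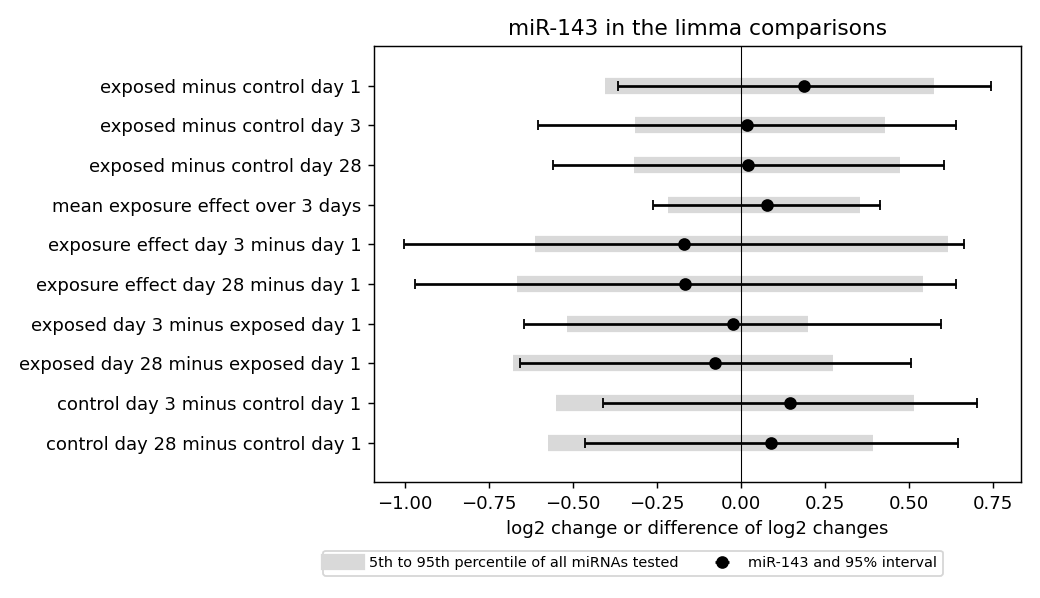
Log2 change of miR-143 with its 95% interval (points and whiskers, horizontal axis) in each of 10 limma comparisons (rows); grey bars run over the 5th to 95th percentile of the changes of all 171 miRNAs tested. Every interval includes 0, and at day 1 it reaches -0.37 to 0.74.

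Ranked by mean, the groups ran exposed day 1, exposed day 3, control day 3, exposed day 28, control day 28 and control day 1. Neighbours in this order differed by 0.017 to 0.090 (two-sided exact permutation tests, adjusted p = 0.942 for each of 5). The order was made from the same means, so neighbours are close by construction and these tests decide little. The ends of the order, exposed day 1 and control day 1, differed by 0.19 (exact permutation p = 0.634, with no allowance for their choice as highest and lowest).

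Slide 1 stood apart for miR-143. Its 4 arrays, 1 from each group of days 1 and 3, held the 4 lowest values of the series, 5.93 to 6.58, against 6.70 to 7.98 on the other 29 arrays. Slide 1 was also scanned on a day of its own. Without it, the log2 change of miR-143 was 0.15 at day 1, 0.098 at day 3 and 0.022 at day 28 (limma adjusted p = 0.844, 0.972 and 0.960). Leaving out control day 1 replicate 1 alone, the lowest of all 33 and an array of slide 1, turned the sign at day 1. The change was then -0.046 (limma adjusted p = 0.985). That fit kept the low exposed day 1 array of slide 1 (6.33), whereas the change stayed positive without the whole slide.

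Within slides, exposed lungs more often had the higher miR-143 signal of 2 mice on the same slide and day. The exposed array was higher in 5 of 6 such pairs at day 1, with differences of -0.39 to 0.64 and a median of 0.22. It was higher in 3 of 4 at day 3, with -0.12 to 0.31 and a median of 0.063, and in 4 of 5 at day 28, with -0.12 to 0.48 and a median of 0.15. These pairs share a slide, not an animal or a litter. In each, the exposed array lay in row 2 and the control array in row 1, so the pairs cannot tell exposure from position on the slide. Such pairs were not counted for the other miRNAs. With slide as a fixed block the log2 change was 0.19 ± 0.16 (SE) at day 1, 0.057 ± 0.19 at day 3 and 0.064 ± 0.17 at day 28 (limma adjusted p = 0.453, 0.947 and 0.942). With scan day as a block it was 0.19, 0.045 and 0.071 (limma adjusted p = 0.441, 0.968 and 0.898).

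**Figure D3:**
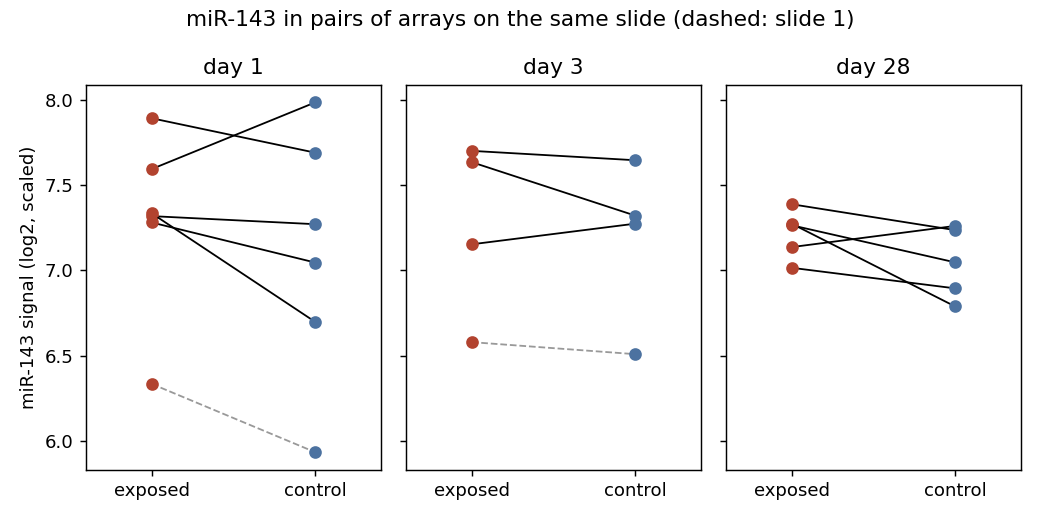
Log2 scaled miR-143 signal (vertical axis) of exposed and control arrays that shared a slide and a day (points joined by a line; dashed for slide 1), for days 1, 3 and 28. Lines fall towards the control array in 5 of 6, 3 of 4 and 4 of 5 pairs.

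The brighter and dimmer probes of miR-143 varied together over the arrays. Their log2 signals had Pearson's r of 0.969 and Spearman's rho of 0.934 over 33 arrays, as a description, since they share array and spot processing. With the dimmer probe in place of the brighter, an alternative chosen after seeing the data, the log2 change was 0.43 ± 0.36 (SE) at day 1, 0.22 ± 0.41 at day 3 and 0.043 ± 0.38 at day 28. Their 95% intervals were -0.32 to 1.17, -0.61 to 1.05 and -0.74 to 0.82, each of which includes 0.

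**Figure D4:**
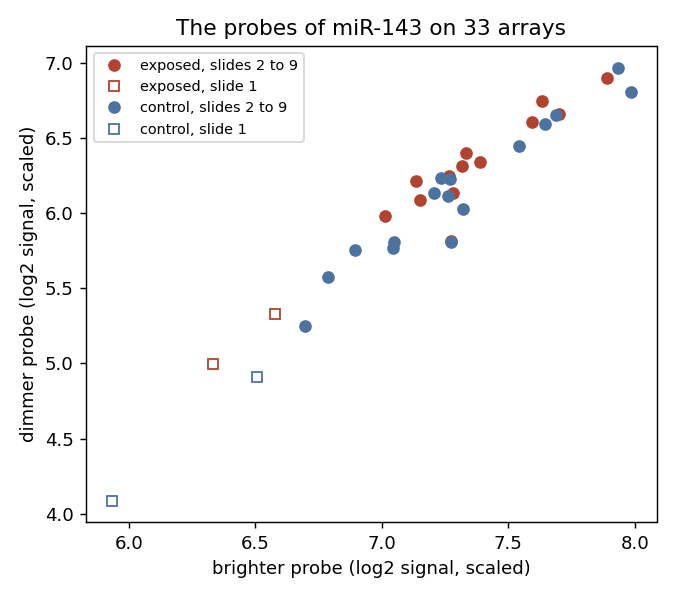
Log2 scaled signal of the dimmer (vertical axis) against the brighter probe of miR-143 (horizontal axis), 1 point per array, with open squares for slide 1. Points rise together (r = 0.969), and slide 1 sits at the low end on both axes.

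miR-145, the partner of miR-143 on the primary transcript, was close to background in these lungs. Its brighter probe was well above background on 1 of 33 arrays, control day 28 replicate 32, in 6 of 10 spots there. Of its 308 unflagged spots in all, 9 were well above background, the other 3 of them on control day 1 replicate 17. The dimmer probe passed on none of the 33 arrays. miR-145 was therefore not among the 171 miRNAs tested, and no fold change is given for it. The star strand miR-145*, with 4 probes, was above background on 0 of 33 arrays.

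The unscaled miR-145 signal ran from -0.95 to 12.0 units over the series, with a median of 2.30. At day 1 its lowest, median and highest signals were 0.770, 2.47 and 4.70 units in exposed lungs, against -0.85, 0.186 and 8.65 units in control lungs. At day 3 they were 0.879, 2.39 and 3.76 units in exposed lungs, against -0.95, 2.31 and 9.16 units in control lungs. At day 28 they were -0.51, 0.214 and 5.78 units in exposed lungs, against -0.63, 3.87 and 12.0 units in control lungs. All groups overlapped.

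Probes for herpesvirus miRNAs on the same arrays gave a measure of background. The miR-145 signal exceeded the 95th percentile of 98 such probes on 7 of 33 arrays, of which 1 was exposed day 1, 0 exposed day 3, 1 exposed day 28, 1 control day 1, 1 control day 3 and 3 control day 28. A median of 88.8% of the virus probes lay below it. As a description, the scaled miR-145 signal had Pearson's r of 0.61 with scaled miR-143 over 33 arrays. With slide means removed r was 0.54. The scaled miR-145 signal also had r of 0.60 with array brightness, and the part of brightness was not tested. The low signal does not show that miR-145 RNA was absent.

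**Figure D5:**
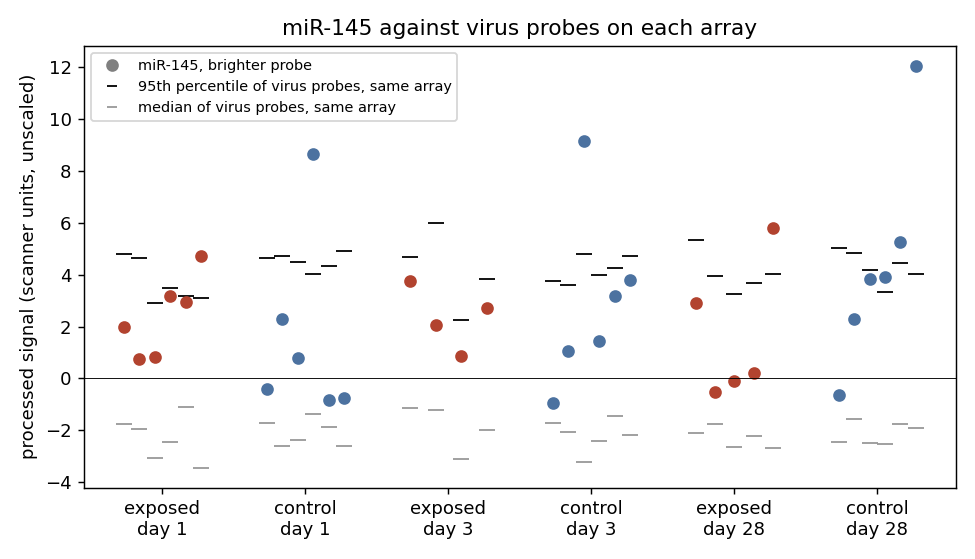
Unscaled processed signal (vertical axis, scanner units) of the brighter miR-145 probe (points) on each array by group (horizontal axis), with the median (grey dash) and 95th percentile (black dash) of 98 virus probes on that array. On 7 of 33 arrays the point lies above the black dash, and the highest is 12.0 units in control day 28.

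With the 6 group means removed and slide left in, the miRNAs that varied most like miR-143 across arrays were miR-30e, miR-26a, miR-30b, miR-141 and miR-125b-5p. miR-141 belongs to the miR-200 family of epithelial cells, miR-30e and miR-30b are of the broadly expressed miR-30 family, and miR-26a and miR-125b are both made in many cell types, smooth muscle included. By that measure, Pearson's r with miR-143 over 33 arrays was 0.85, 0.82, 0.81, 0.79 and 0.75 in that order. Without removing group means it was 0.84, 0.81, 0.78, 0.77 and 0.70. Over the 93 other miRNAs above background on every array the median r was -0.28, with a range of -0.87 to 0.85. These arrays share slides and a common scaling, and each of the 5 values was lower with slide taken out. With slide means removed, r was 0.63 for miR-30e, 0.37 for miR-26a, 0.32 for miR-30b, 0.62 for miR-141 and 0.033 for miR-125b-5p. Without slide 1, it was 0.58, 0.51, 0.51, 0.53 and 0.26. Other miRNAs then came first: with slide means removed, miR-200a (r = 0.66) and miR-140* (r = 0.65) were above all 5, and without slide 1, miR-34b-5p (r = 0.69), miR-34c (r = 0.67) and miR-140* (r = 0.65) were. miR-140*, miR-34b-5p and miR-34c were named after their values were seen.

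Within each array, miR-143 was set against miRNAs of the cell types it sits beside. A log ratio of 2 features of 1 array does not move with the scaling between arrays. Relative to miR-126-3p, the endothelial marker, the log2 ratio of miR-143 in exposed minus control lungs differed by 0.25 at day 1, 0.014 at day 3 and 0.21 at day 28. Relative to 4 fibroblast miRNAs (miR-199a-3p, miR-199a-5p, miR-199b* and miR-214) it differed by 0.32, -0.018 and 0.12. Relative to 5 miRNAs of the epithelial miR-200 family it differed by 0.15, 0.076 and 0.027. None of the 9 differences passed the test (two-sided exact permutation tests, adjusted p = 0.981 for each). Slide was not taken into account in these tests.

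Among 9 listed miRNAs linked to dividing or dedifferentiated smooth muscle, all tested, 0 passed the limma test at day 1, day 3 or day 28 (0% of all 171 on each day). At an unadjusted p under 0.05, 2 were higher at day 1, 0 at day 3 and 3 at day 28, and none lower, against 9 higher and 6 lower, 2 higher and 0 lower, and 9 higher and 4 lower of all 171 on those days. miR-21, which is raised in injured vessels and inflamed lung, had a log2 change of 0.41 ± 0.22 (SE) at day 1, 0.27 ± 0.25 at day 3 and 0.85 ± 0.23 at day 28 (limma adjusted p = 0.495, 0.996 and 0.157). Its mean effect over the 3 days was 0.51 ± 0.14 (SE; limma adjusted p = 0.0594). miR-222, which lowers cell cycle inhibitors, had 1.10 ± 0.31 at day 1, 0.49 ± 0.35 at day 3 and -0.13 ± 0.33 at day 28 (SE; limma adjusted p = 0.117, 0.996 and 0.986). miR-155, an inflammatory miRNA of immune cells, had 0.93 ± 0.30 at day 1, -0.19 ± 0.33 at day 3 and 0.75 ± 0.31 at day 28 (SE; limma adjusted p = 0.210, 0.996 and 0.563). miR-222 was above background on only 15 of 33 arrays and miR-155 on 13, whereas miR-21 and miR-146a were on all 33. The changes of miR-222 and miR-155 thus rest in part on signals below detection. miR-146a, a brake on inflammatory signalling, had -0.060 ± 0.17 at day 1, -0.075 ± 0.20 at day 3 and 0.48 ± 0.18 at day 28 (SE; limma adjusted p = 0.863, 0.996 and 0.563). The median log2 change of the 9 was 0.068, -0.019 and 0.040 at days 1, 3 and 28. The other 5 members, miR-221, miR-24, miR-26a, miR-31 and miR-130a, had changes between -0.15 and 0.20 on the 3 days. The myeloid list (miR-142-3p, miR-142-5p and miR-223) had a median log2 change of 0.51, 0.016 and 0.15 at the same days, and its part in these values was not tested.

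Of 6 miRNAs linked to contractile smooth muscle, 5 were tested and 0 passed on any day, and miR-204 did not pass the filter. Over all 171 miRNAs the share called was 0% on each day. None of the 5 had an unadjusted p under 0.05, against 9 higher and 6 lower of all 171 at day 1, 2 higher and 0 lower at day 3, and 9 higher and 4 lower at day 28. Their median log2 change was 0.39 at day 1, -1.31 at day 3 and -1.23 at day 28, against -0.094, -0.036 and -0.035 over all 171. miR-10a and miR-100 had changes between -0.21 and 0.018. The wide values came from miR-1, miR-133a and miR-133b, which are also the defining miRNAs of heart and skeletal muscle. The list median was the value of miR-133b at day 1 and of miR-133a at days 3 and 28. miR-1, miR-133a and miR-133b were above background on 31, 10 and 16 of 33 arrays, so the list medians rest in part on signals below detection. For miR-1 the log2 change was 0.84 ± 0.76 (SE) at day 1, -1.39 ± 0.84 at day 3 and -1.55 ± 0.79 at day 28 (limma adjusted p = 0.636, 0.996 and 0.629). Its log2 signal ran from 4.07 to 9.51 over the arrays. The summed scaled signal of all 7 heart and skeletal muscle miRNAs was 33.2 to 972 units in exposed and 28.3 to 1021 units in control lungs at day 1. It was 29.7 to 85.5 in exposed and 67.8 to 445 in control lungs at day 3, and 29.2 to 77.0 in exposed and 34.7 to 255 in control lungs at day 28. miR-206 and miR-208a lay at the floor on 33 arrays, miR-499 on 32 and miR-208b on 25, and all 4 were above background on 0 of 33. The part of heart or skeletal muscle tissue in the values of miR-1 and miR-133 was not tested.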

How the data were processed

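Cy3-labelled lung RNA enriched for small RNA was measured on 33 one-colour Agilent arrays on 9 slides, scanned on 5 days. The deposited scanner files hold spot intensity from Feature Extraction 10.7.3.1, background-subtracted in the processed signal, per the file headers. The log2 table deposited by the authors for the whole series served as an alternative only. The sources used here do not give how the authors made it. Its column medians were 5.41 to 5.43, its centring and scaling stay unknown, and its miR-143 values had r = 0.963 with the scanner values.

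Control spots and spots flagged as outliers (2.30%) were left out, and 0 spots were saturated. Spots were averaged per probe. Each array was scaled so that its 75th percentile over 156 probes detected on all arrays was equal, values under 1 were set to 1, and log2 was taken. A probe was above background when most unflagged spots were so flagged by the scanner software. A miRNA was represented by its probe of highest mean. Names are those of the array design. All 33 arrays were fitted together, with a mean for each of 6 groups, by limma 3.58.1 under R 4.3.3, using eBayes and an intensity trend, two-sided, Benjamini-Hochberg adjusted over 171 miRNAs within a contrast, threshold 0.05. The fit was tested on simulated data with planted changes much larger than those of miR-143 and no slide effect. That test does not speak to the power for miR-143. The number of arrays is one limit on the precision.

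miRNAs named were the members, their star strands on the array, the 5 most like miR-143 and members of the fixed lists. Members and lists were chosen with earlier results of these data known. Because miR-145 was above background on 1 of 33 arrays and did not pass the filter, its planned log ratio over miR-143, its order of groups and its most like miRNAs were not run. The planned normexp alternative used the median spot signal, with an offset of 50. Other alternatives were the total gene signal, the mean over probes, other scalings, a floor of 10, other filters, slide and scan day as blocks, leaving out slide 1 or single arrays, no intensity trend, and fits on fewer groups.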

Additional observations from a re-analysis of the deposited data

How the results depend on the processing

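No change of miR-143 between exposed and control lungs passed the limma threshold under any of the settings tried, and its sign was unsettled at days 1, 3 and 28. Log2 changes whose sign turned were as follows. Under normexp background correction they were -0.079 at day 1, -0.030 at day 3, 0.049 and 0.21 for the exposure effect at day 3 and day 28 relative to day 1, and -0.058 and -0.23 for control day 3 and day 28 relative to day 1. With the total gene signal, exposed day 3 and day 28 relative to exposed day 1 gave 0.018 and 0.0023. With quantile normalization, day 28 gave -0.00073 and exposed day 28 relative to exposed day 1 gave 0.023. With the percentile over all probes, day 3 gave -0.024, day 28 gave -0.22 and exposed day 3 relative to exposed day 1 gave 0.029. Without scaling, day 3 gave -0.056 and day 28 gave -0.59. Exposed day 3 relative to exposed day 1, and control day 28 relative to control day 1, were 0.082 and -0.098 with slide as a fixed block, 0.048 and -0.024 with slide as a random block, 0.042 and -0.085 with scan day as a block, and 0.012 and -0.14 without slide 1. The cause of these turns was not tested. Under normexp the median change of all miRNAs tested was -0.36 at day 1 and 0.011 at day 3. For the exposure effect at day 3 and day 28 relative to day 1, that median was 0.38 and 0.64. For control day 3 and day 28 relative to control day 1, it was -0.35 and -0.63.

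Without scaling, 2 comparisons of miR-143 passed: the exposure effect at day 28 relative to day 1 was -1.44 (limma adjusted p = 0.0392) and control day 28 relative to control day 1 was 1.28 (limma adjusted p = 0.0104). In these 2 comparisons the median change of all miRNAs was then -1.25 and 1.02, and 119 and 142 of the 171 miRNAs were called. Between exposed and control lungs, the unscaled median change was 0.57 at day 1 and -0.65 at day 28. Relative to the median of all miRNAs tested, miR-143 was 0.16 to 0.35 higher at day 1 over the scalings and summaries tried. The difference was -0.041 to 0.12 at day 3 and -0.14 to 0.098 at day 28, negative on these later days under normexp alone. Multiplying a whole array by a factor moves miR-143 and that median together. The main fit, the unscaled fit and the all-probe percentile fit therefore gave 0.282 at day 1 by construction. Their agreement does not show that the difference is robust. These differences are given without an error or a test.

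Leaving out 1 array at a time gave changes of -0.046 to 0.38 at day 1, -0.13 to 0.25 at day 3, -0.059 to 0.17 at day 28 and -0.0023 to 0.15 for the mean effect. The exposure effect ran from -0.36 to 0.063 at day 3 and -0.36 to 0.067 at day 28 relative to day 1. Exposed day 3 and day 28 relative to exposed day 1 ran from -0.22 to 0.20 and from -0.27 to 0.043, and control day 3 and day 28 relative to control day 1 from -0.088 to 0.32 and from -0.14 to 0.27.

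Log ratios of miR-143 turned sign over miR-126-3p under normexp (-0.091 at day 1 and -0.036 at day 3) and in the series table (-0.024 at day 28). Over the fibroblast miRNAs at day 3 they were 0.025 with the total gene signal, 0.065 with the mean over probes, 0.081 in the series table and 0.040 without slide 1. With 1 array left out they ran from -0.0042 to 0.48 and -0.18 to 0.26 over miR-126-3p at days 1 and 3, from -0.19 to 0.21 over the fibroblast miRNAs at day 3, and from -0.088 to 0.33, -0.068 to 0.25 and -0.045 to 0.14 over the epithelial miRNAs at days 1, 3 and 28.

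Counts of called miRNAs moved with the settings. Single arrays left out included, they ran from 0 to 6 at day 1, 0 to 1 at day 3 and 0 to 4 at day 28. For the mean effect they ran from 0 to 14 (14 with slide as a fixed block). They ran from 0 to 119 for the effect at day 28 relative to day 1 (119 without scaling and 95 under normexp). For exposed day 28 relative to exposed day 1 they ran from 0 to 9. For control day 28 relative to control day 1 they ran from 0 to 142 (142 without scaling and 126 under normexp). That last count was 0 under quantile normalization, with only the groups of the contrast fitted, and without control day 1 replicate 1. No analysis paired by animal was possible because replicate numbers run through the series and each names 1 array. Pairs and blocks by slide were run and stand with the results. Signal over background sets the limit for miR-145, for which a change could not be measured.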
